A study of Mus musculus with 12 samples.

Results

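The genes described here are 35 macrophage and myeloid genes, measured by RNA sequencing in cultures of mouse paw cells that were grown as synovial fibroblasts, the connective tissue cells of the joint lining. They were chosen by gene symbol, and all 35 were found among the 55413 genes of the deposited table. They fall into lineage factors and receptors, scavenger receptors, Fc receptors and their adaptors, C-type lectins, lysosomal proteins, the phagocyte NADPH oxidase, and activation genes. Values are regularized log (rlog) values, a log2 scale on which the authors shrank the differences of weakly expressed genes. A gene was tested where its mean over all 12 libraries was at least 3, which held for 29 of the 35 genes and for 16459 genes in all.

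All cultures came from BALB/c mice, an inbred strain, whose paws had been injected with monosodium urate (MSU), the crystals that cause gout. Paw cells freed with collagenase were pooled over 2 to 3 paws and kept for 5 passages in culture. The 4 groups had 3 libraries each. In vitro treated libraries came from primed paws, injected with crystals on day 0 and day 9, and their cells were given 1 µM I-BET151 for 24 h. In vivo treated libraries came from primed paws of mice that received I-BET151 at 20 mg/kg per day, starting 1 day before the first crystals. Primed vehicle libraries came from primed paws of mice injected without the compound. Non-primed vehicle libraries came from the right paws of vehicle mice, injected on day 9 alone, while primed paws were left paws. RNA was taken on day 18. I-BET151 inhibits the BET bromodomain proteins, which bind acetylated histones and promote transcription. Separate animals are not named as the source of a group's libraries, so p-values measure the spread between pooled cultures, which may be technical.

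Macrophages descend from blood monocytes or from embryonic precursors that settle in tissues, and the joint lining holds both macrophages and fibroblasts. The transcription factor PU.1, encoded by Spi1, and the receptor Csf1r set up and maintain the lineage, and a macrophage carries Fc receptors, lectins, lysosomal enzymes and an oxidase that it uses on engulfed material. Some of these genes mark the cell wherever it is found, whereas others, such as Gpr84, Clec4e and Cd80, are switched on when the cell meets microbes, damage or inflammatory cytokines. Macrophages attach to plastic and can persist in fibroblast cultures.

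Promoters are shown for the 4 genes with the lowest in vitro differences and for a pair of lineage-defining genes, Itgam and Lyz2, which hold the most and the fewest GAGGAA matches among those with a window. Windows of 250 bases before to 50 bases after the transcription start were taken from RefSeq (GRCm38.p6), which gave 31 windows for 28 of the 35 symbols. Capitals mark GAGGAA, the core letters bound by PU.1, on either strand, so that TTCCTC is the same match on the other strand.
Itgam (chr7:128062390-128062689, plus strand): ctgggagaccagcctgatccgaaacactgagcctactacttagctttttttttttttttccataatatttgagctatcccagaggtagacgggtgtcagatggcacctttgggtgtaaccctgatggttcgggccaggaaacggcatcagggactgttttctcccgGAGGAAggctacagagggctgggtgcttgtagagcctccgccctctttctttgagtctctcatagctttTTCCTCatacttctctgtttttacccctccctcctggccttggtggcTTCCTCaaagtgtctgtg
Lyz2 (chr10:117282223-117282522, minus strand): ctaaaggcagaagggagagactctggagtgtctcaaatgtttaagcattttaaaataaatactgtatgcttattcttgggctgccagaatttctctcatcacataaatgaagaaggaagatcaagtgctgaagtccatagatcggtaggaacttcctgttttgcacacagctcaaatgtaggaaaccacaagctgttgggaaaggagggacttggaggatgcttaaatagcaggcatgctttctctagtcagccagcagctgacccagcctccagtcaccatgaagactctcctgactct
Clec4e (chr6:123289822-123290121, minus strand): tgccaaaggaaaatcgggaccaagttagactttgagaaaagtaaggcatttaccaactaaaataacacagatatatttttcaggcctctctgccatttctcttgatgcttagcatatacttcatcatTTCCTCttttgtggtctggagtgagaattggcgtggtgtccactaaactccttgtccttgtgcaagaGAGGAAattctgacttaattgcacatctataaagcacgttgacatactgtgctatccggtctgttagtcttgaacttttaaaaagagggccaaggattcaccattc
Clec4d (chr6:123261857-123262156, plus strand): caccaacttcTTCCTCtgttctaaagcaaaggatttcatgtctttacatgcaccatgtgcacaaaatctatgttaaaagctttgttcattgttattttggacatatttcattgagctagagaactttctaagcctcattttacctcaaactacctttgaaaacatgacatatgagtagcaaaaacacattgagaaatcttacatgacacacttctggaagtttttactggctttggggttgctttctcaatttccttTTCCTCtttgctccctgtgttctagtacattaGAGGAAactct
Gpr84 (chr15:103310389-103310688, minus strand): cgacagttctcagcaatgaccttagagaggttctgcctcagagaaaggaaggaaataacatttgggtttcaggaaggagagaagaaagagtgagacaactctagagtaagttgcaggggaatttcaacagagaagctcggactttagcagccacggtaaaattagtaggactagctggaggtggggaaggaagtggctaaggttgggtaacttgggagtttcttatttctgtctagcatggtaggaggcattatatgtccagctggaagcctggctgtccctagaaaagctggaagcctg
Cd80 (chr16:38458683-38458982, plus strand): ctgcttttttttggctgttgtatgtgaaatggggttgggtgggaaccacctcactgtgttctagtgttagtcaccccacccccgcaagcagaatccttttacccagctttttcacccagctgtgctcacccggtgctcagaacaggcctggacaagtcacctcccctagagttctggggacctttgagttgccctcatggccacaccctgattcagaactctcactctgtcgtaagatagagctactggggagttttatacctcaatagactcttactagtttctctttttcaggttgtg
The GAGGAA letters were in 17 of the 31 windows (54.8%), against 28.3% of all 32851 windows. Itgam and Clec4d held 3 matches each and Clec4e held 2, whereas the windows of Lyz2, Gpr84 and Cd80 held none, so that neither kind of gene was uniform in this respect. The longer form GAGGAAGT, which contains the core, was in 3.23% of the windows of these genes and in 3.2% of all windows. A match to the NF-kB consensus was in 6.45% of them, both of these windows being of Fcgr3, and in 8.46% of all windows. These matches are letters in a window and no record of binding.

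Pigment cell transcripts set 5 libraries apart from the other 7. The mean over 15 melanocyte markers was 12.88 and 12.87 in the libraries labelled in vivo 2 and 3 and 12.87 to 14.28 in the 3 non-primed libraries, against 6.11 to 7.28 in the other 7. The mean over 10 fibroblast markers was 6.54 to 10.77 in those 5 libraries and 14.08 to 15.11 in the other 7. The labelled cell type therefore stood out by its markers in 7 libraries, and these 7 include the library labelled in vivo 1. Hexim1, an inhibitor of transcription elongation that rises when BET proteins are blocked, was at 14.26 in the library labelled non-primed 3, against 12.19 and 12.25 in non-primed 1 and 2. That library thus lay beside the in vivo libraries, at 13.90, 14.23 and 14.18. Brd2, a BET gene that also rises when the proteins are inhibited, was at 15.98 there, against 14.78 and 14.40 in non-primed 1 and 2. The library labelled in vivo 1 lay beside the in vitro libraries in its melanocyte mean (6.11, against 6.15 to 6.49) and its fibroblast mean (14.36, against 14.08 to 14.63), and its Brd2 level of 16.99 was nearer to theirs (16.47 to 16.77) than to the 16.00 and 16.02 of in vivo 2 and 3. Both libraries depart from the rest of their labelled groups. Whether either label is wrong was not tested. Counts of called macrophage genes that rest on these libraries are given with and without them. Several counts of the other marker lists, and several calls of single genes, are given only with them.

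The 9 lineage-defining genes (Spi1, Csf1r, Adgre1, Ptprc, Itgam, Lyz2, Cd68, Tyrobp and Fcer1g) all reached the minimum mean of 3. Single values were lower, such as 1.48 for Itgam in in vivo 2 and 1.86 for Ptprc in non-primed 3. Detection in a single library cannot be read from rlog values, which keep no counts. The mean level of the 9 genes was 9.08, 10.20 and 8.49 in the in vitro libraries and 7.99, 4.59 and 6.25 in the in vivo libraries. It was 9.23, 9.52 and 10.19 in the primed vehicle libraries and 5.76, 6.64 and 3.72 in the non-primed vehicle libraries. The in vitro and primed vehicle libraries overlapped, the 5 melanocyte-rich libraries were the lowest of the 12, and in vivo 1 lay between. Fewer macrophages and less RNA per macrophage cannot be told apart in such bulk samples.

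**Figure D1:**
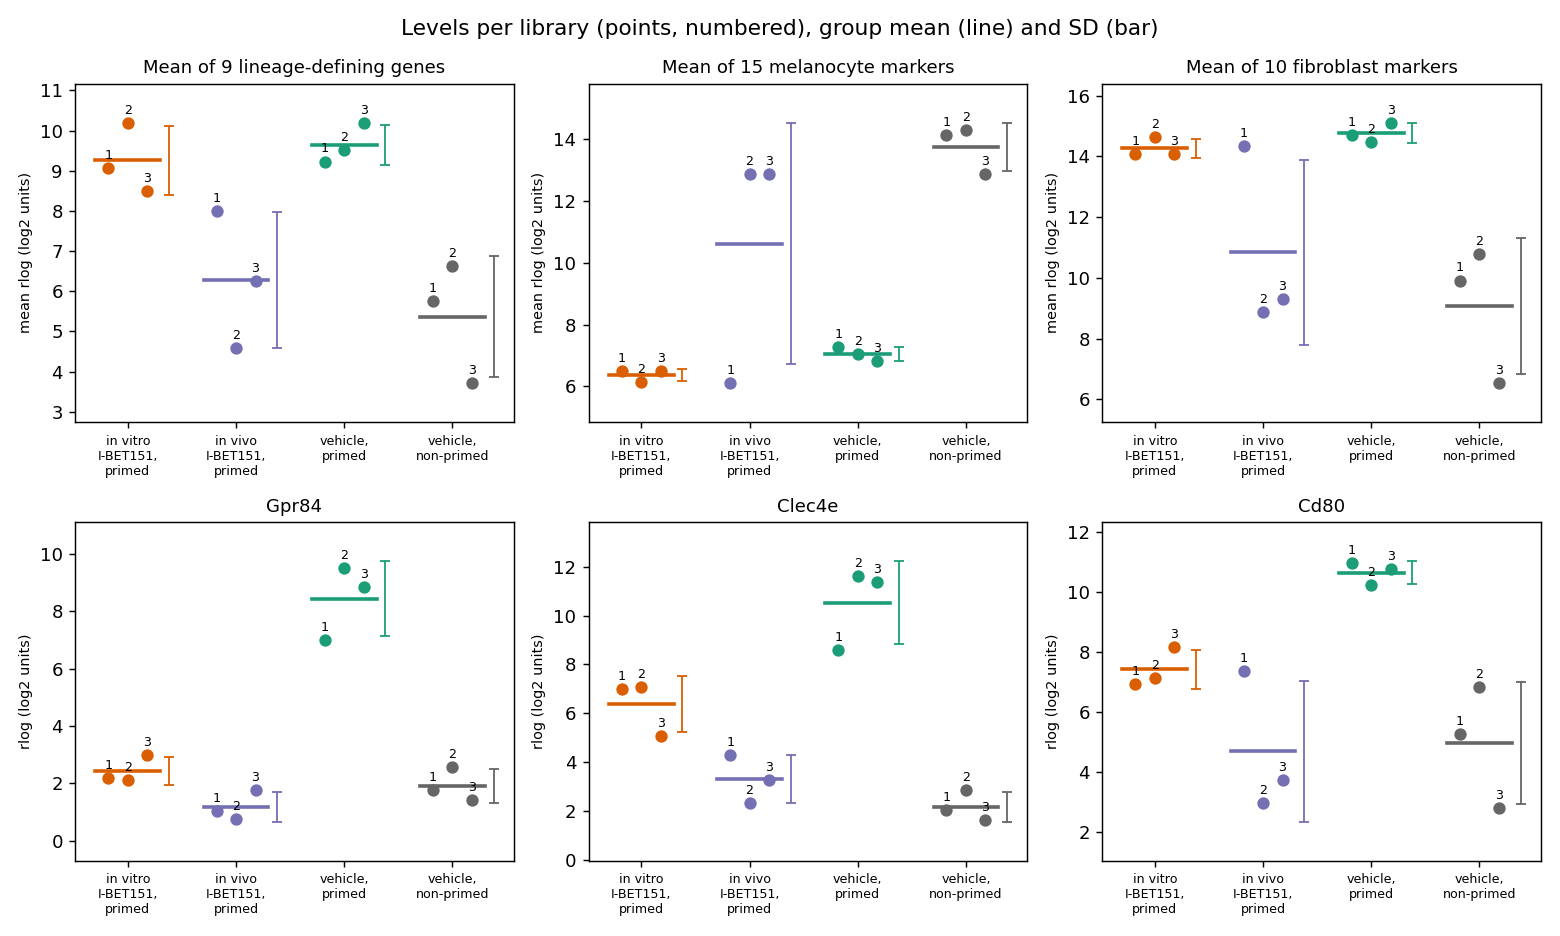
Level per library (points, numbered by library, rlog in log2 units on the vertical axis) with the group mean (line) and SD (bar, n = 3 libraries), for the mean of 9 lineage-defining genes, 15 melanocyte markers and 10 fibroblast markers and for Gpr84, Clec4e and Cd80. In vitro and primed vehicle libraries overlap for the lineage mean (8.49 to 10.20 and 9.23 to 10.19) and lie apart for Gpr84 (2.13 to 3.01 and 6.99 to 9.49).

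Within groups the genes moved together from library to library. Of the 29 tested genes, 24 (82.8%) were highest in in vitro library 2, where 35.6% of all tested genes were highest. In the in vivo group 28 (96.6%) were highest in library 1, against 49.8% of all genes, and 28 were lowest in library 2, against 29.5%. Primed vehicle library 3 held the highest value of 21 genes (72.4%), against 31.1% of all genes. Among the non-primed libraries, library 2 was highest for 26 genes (89.7%), against 34.5%, and library 3 was lowest for 27 (93.1%), against 47.6%. The highest library was thus number 2 in the in vitro and non-primed groups, 1 in the in vivo group and 3 in the primed vehicle group. The mean over 10 fibroblast markers was highest in the same libraries, at 14.63, 10.77, 14.36 and 15.11 in that order. It was also lowest in in vivo 2 (8.87) and non-primed 3 (6.54). The pattern is therefore not particular to the macrophage genes.

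**Figure D2:**
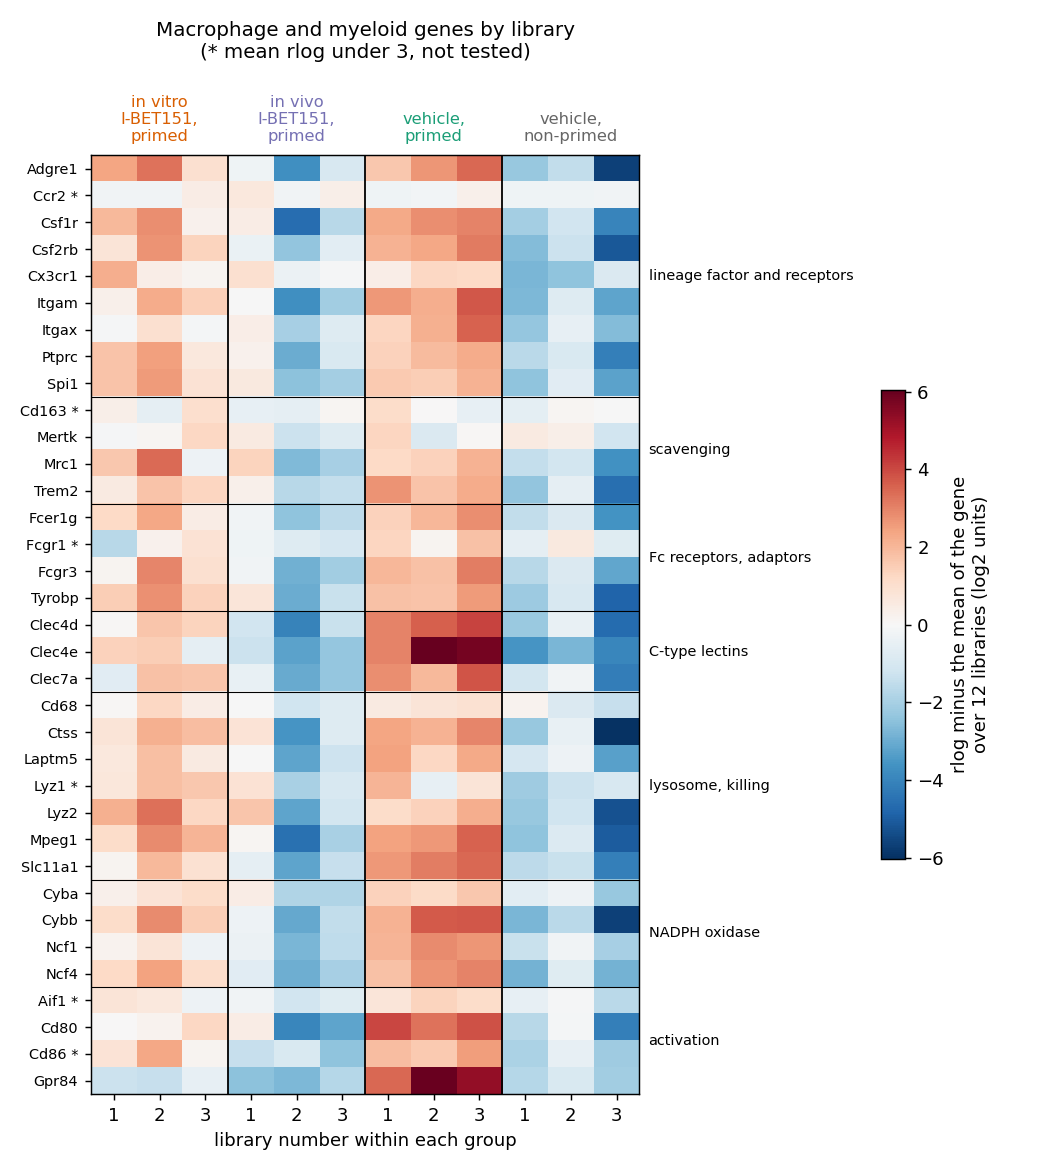
Rlog of each of the 35 genes in each of the 12 libraries, as the difference from the mean of the gene over the 12 libraries (color, log2 units), with genes grouped by role and an asterisk on those not tested. Most rows share a column pattern, high in the in vitro and primed vehicle libraries and low in in vivo 2 and non-primed 3, while Gpr84 is high in the 3 primed vehicle libraries alone.

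The comparison of in vitro treated and primed vehicle libraries asks what 24 h of BET inhibition does to cells that had seen crystals in the animal, and no melanocyte-rich library is on either side. Gpr84, which encodes a fatty acid receptor of activated myeloid cells, and Clec4e, a lectin that recognises mycobacterial glycolipid and dead cells, fell. The other 27 tested genes did not pass when all 12 libraries shared an estimate of spread. In that fit 2.76% of all tested genes fell and 1.76% rose (limma, Benjamini-Hochberg adjusted p under 0.05). In a fit of the 6 compared libraries alone 7 of the 29 fell and 0 rose, against 16.9% and 13.4% of all genes. These shares are too near those of all genes to be read as a change of the 29 genes as a whole. The median difference was -0.93 for the 29 genes and -0.02 for all tested genes. In the 6-library fit 2 of 3 tested neutrophil markers, 2 of 15 melanocyte markers and 1 of 10 fibroblast markers also fell, and their part in the falls of the macrophage genes was not tested.

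Gpr84 (chromosome 15, 103308235 to 103310612, GRCm38) was at 2.21, 2.13 and 3.01 in the in vitro libraries, against 6.99, 9.49 and 8.82 in the primed vehicle libraries. Its in vitro level lay beside that of the non-primed libraries, at 1.77, 2.57 and 1.41. The mean of the lineage-defining genes was low in those libraries (5.76, 6.64 and 3.72), although Cd68 was at 10.46, 9.40 and 8.89. The difference of Gpr84 from vehicle was -5.99 ± 0.61 (SE, n = 3 libraries per group; adjusted p = 0.0038, limma). It was called when any 1 of the 6 libraries was left out. Gpr84 reached the minimum mean of 3 only through the primed vehicle libraries, where it averaged 8.43, and was the 1 gene of the 29 to do so, so that being tested and being high in vehicle are not independent. With no filter its adjusted p was 0.00192 (limma). Gpr84 shares 39.5% of its exonic bases with the antisense gene Gm49482, which averaged -1.73 over the 12 libraries.

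Clec4e (chromosome 6, 123281789 to 123289870) was at 6.98, 7.09 and 5.07 in the in vitro libraries, against 8.58, 11.64 and 11.37 in the primed vehicle libraries. The difference was -4.15 ± 0.87 (SE; adjusted p = 0.0322, limma, 12 libraries). The groups did not overlap, and vehicle library 1 was the vehicle library nearest to the in vitro ones. Left out singly, in vitro 1, 2 or 3 or vehicle 2 or 3 took the adjusted p of the 12-library fit to between 0.0775 and 0.128. In the 6-library fit the call was lost without vehicle 3 alone (adjusted p = 0.0518, limma).

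Clec4d, the lectin that pairs with Clec4e and lies beside it on chromosome 6 (123262111 to 123275265), was at 6.77, 8.37 and 8.07 in the in vitro libraries, against 9.72, 10.33 and 10.80 in the primed vehicle libraries. Cd80 (chromosome 16, 38455561 to 38496335), a ligand that costimulates T cells, was at 6.96, 7.16 and 8.18 in the in vitro libraries, against 10.97, 10.24 and 10.77 in the primed vehicle libraries. In both genes every in vitro library lay below every vehicle library. In the 6-library fit Cd80 differed by -3.23 ± 0.35 (SE; adjusted p = 0.00255, limma) and Clec4d by -2.55 ± 0.46 (adjusted p = 0.0084), and both calls were made without any 1 library. In the 12-library fit their adjusted p were 0.13 and 0.172, with SE of 1.17 and 1.04.

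Ncf1, a cytosolic subunit that switches on the NADPH oxidase, was at 5.24, 5.79 and 4.71 in the in vitro libraries, against 7.07, 7.88 and 7.71 in the primed vehicle libraries. Its difference was -2.30 ± 0.36 (SE; adjusted p = 0.00531, limma, 6 libraries), and this call too was made without any 1 library. Ncf1 shares 11.1% of its exonic bases with Gtf2ird2 on the other strand, and how the counting treated strand is not stated. The other oxidase subunits differed less, Cybb by -1.36 ± 1.03, Ncf4 by -0.95 ± 0.73 and Cyba by -0.67 ± 0.64 in the 12-library fit, and none was called in either fit.

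Slc11a1, a metal transporter of the phagosome membrane, was at 7.15, 8.94 and 7.88 in the in vitro libraries, against 9.57, 10.05 and 10.47 in the primed vehicle libraries. Itgax, an integrin chain of dendritic cells and some macrophages, was at 4.34, 5.38 and 4.30 in the in vitro libraries, against 5.68, 6.55 and 7.99 in the primed vehicle libraries. Neither overlapped between groups. Slc11a1 differed by -2.04 ± 0.46 (SE; adjusted p = 0.0173, limma, 6 libraries) and lost the call without vehicle 3 (adjusted p = 0.0554). Itgax differed by -2.07 ± 0.61 (SE; adjusted p = 0.0428, limma, 6 libraries) and was also called without vehicle 1, but not when another of the 6 libraries was left out. With Clec7a and Cyba, 9 of the 29 genes had every in vitro library below every vehicle library, a share close to the 25.7% of all tested genes.

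The 9 lineage-defining genes showed no called difference in either fit. Spi1 (chromosome 2, 91082390 to 91115756) was at 7.02, 7.87 and 6.20 in the in vitro libraries, against 6.91, 6.80 and 7.41 in the primed vehicle libraries. Ptprc, the phosphatase shared by all leukocytes, was at 7.73, 8.46 and 6.64, against 7.40, 7.91 and 8.22 in the vehicle libraries. Adgre1, a surface receptor that marks mouse macrophages, was at 10.64, 11.54 and 9.23 in the in vitro libraries, against 9.88, 10.95 and 11.71 in the vehicle libraries. In all 3 genes the in vitro range contained most of the vehicle range, and the differences were -0.01 ± 0.85, -0.23 ± 0.95 and -0.38 ± 1.18 (SE, 12 libraries).

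Of the 6 tested lysosomal genes Slc11a1 was the only one called, in the 6-library fit, and the median difference of the 6 was -0.87. Laptm5, a lysosomal membrane protein, differed by -0.995 ± 0.889, Ctss, a protease, by -0.89 ± 1.33 and Mpeg1 by -0.85 ± 1.20 (SE, 12 libraries). Cd68, a lysosomal membrane glycoprotein, was at 10.34, 11.52 and 10.74 in the in vitro libraries, against 10.80, 11.06 and 11.19 in the primed vehicle libraries. Lyz2, a lysozyme that mouse macrophages make in quantity, was at 14.23, 15.42 and 13.34 in the in vitro libraries, against 13.22, 13.48 and 14.27 in the vehicle libraries. The groups overlapped in both, with differences of -0.15 ± 0.44 and 0.67 ± 1.24 (SE, 12 libraries). Tyrobp, the adaptor through which Trem2 signals, was at 8.53, 9.81 and 8.42 in the in vitro libraries, against 8.80, 8.75 and 9.64 in the vehicle libraries. Fcer1g, the adaptor of Fc receptors and of Clec4e, was at 8.65, 9.79 and 7.89 in the in vitro libraries, against 8.83, 9.46 and 10.26 in the vehicle libraries. Neither adaptor was called, at -0.15 ± 1.05 and -0.74 ± 0.81.

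Csf1r and Itgam were the lineage-defining genes with the lowest in vitro differences. Csf1r, the receptor for the growth factor Csf1, was at 9.06, 9.91 and 7.35 in the in vitro libraries, against 9.41, 9.91 and 10.10 in the primed vehicle libraries. Itgam, an integrin chain of complement receptors, was at 5.49, 7.45 and 6.61 in the in vitro libraries, against 7.81, 7.37 and 8.92 in the vehicle libraries. The groups touched or overlapped in both, at -1.03 ± 1.18 and -1.52 ± 0.95 (SE, 12 libraries), and neither was called in either fit. Itgam shares 68.7% of its exonic bases with Gm49368 on the same strand, whose mean over the 12 libraries is listed at 0, and how reads in the shared bases were assigned is not stated. Csf1r shares 15.1% of its exonic bases with Hmgxb3 on the other strand, which averaged 12.21, and with the treatment of strand unstated their reads cannot be told apart. Among the scavenger receptors, Mrc1, the mannose receptor, differed by 0.00 ± 1.17, Mertk, which binds dying cells, by 0.29 ± 0.69 and Trem2, a lipid-binding receptor, by -1.04 ± 0.89.

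**Figure D3:**
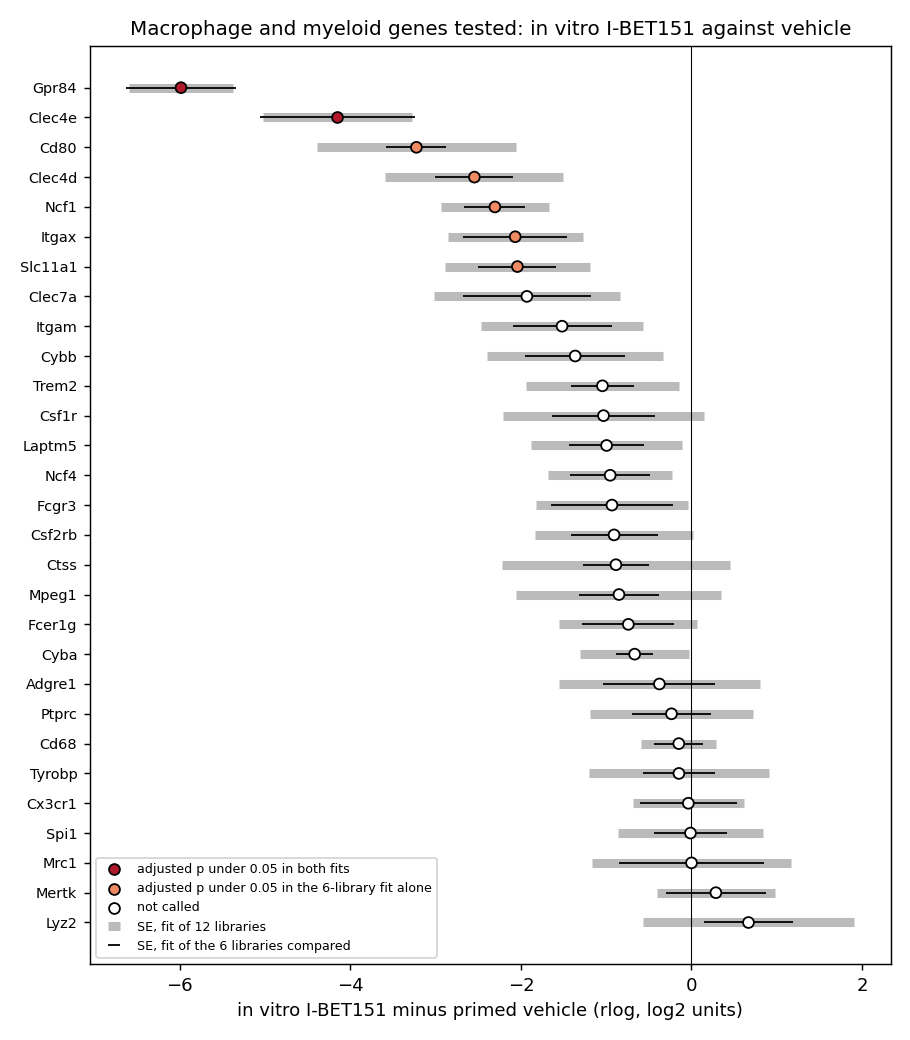
Difference of in vitro treated minus primed vehicle libraries (horizontal axis, rlog, log2 units) for each of the 29 tested genes, with the SE of the 12-library fit (grey) and of the 6-library fit (black). Gpr84 at -5.99 and Clec4e at -4.15 lie farthest from 0, and the lineage-defining genes lie between -1.52 (Itgam) and 0.67 (Lyz2).

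To describe each gene relative to the lineage genes of its own library, the mean of the 9 lineage-defining genes was subtracted within each library. After this, 7 of the other 20 tested genes had every in vitro library below every vehicle library and 0 had every one above. Of all 16459 tested genes, 3.96% lay apart below by the same measure and 818 lay apart above. Without the subtraction 31% of the 29 genes and 25.7% of all tested genes lay apart below. The subtraction adds the spread of the lineage mean between libraries to every gene that does not follow it. The count of 7 is therefore not read against the 3.96%. The 7 genes were Gpr84, Clec4e, Cd80, Clec4d, Ncf1, Itgax and Slc11a1, whose relative levels were lower in vitro by -5.59, -3.76, -2.83, -2.15, -1.91, -1.67 and -1.65 in that order. These differences are a description with no test. The library labelled in vivo 1, the only in vivo library poor in melanocyte transcripts, differed from the vehicle mean by -5.75 for Gpr84, -4.58 for Clec4e and -3.08 for Clec4d on the same scale. Itgax, at -0.27 in in vivo 1, did not share that offset, and Lyz2 was 1.79 above the vehicle mean there and 1.06 above it in the in vitro libraries.

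**Figure D4:**
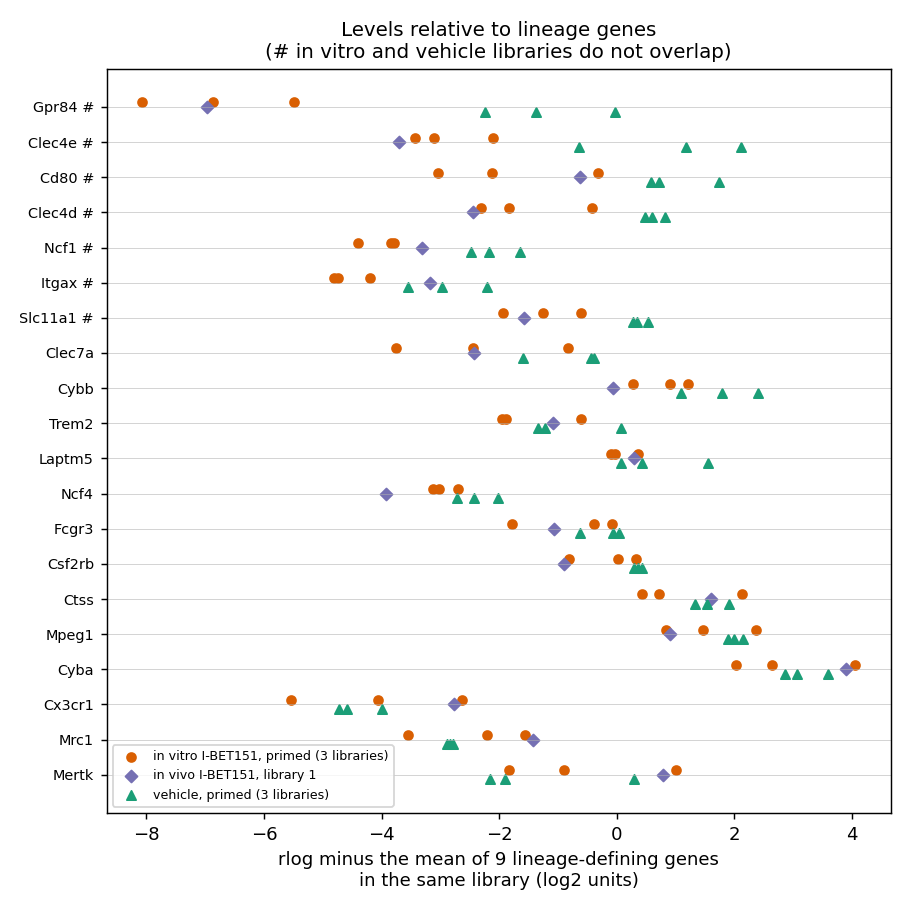
Rlog minus the mean of 9 lineage-defining genes in the same library (horizontal axis, log2 units), for the 20 other tested genes in the 3 in vitro libraries, in vivo library 1 and the 3 primed vehicle libraries. The in vitro points lie left of all vehicle points for the 7 genes marked #, by -5.59 on average for Gpr84, and positions of different genes on the axis are not compared because gene length enters them.

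The comparison of in vivo treated and primed vehicle libraries asks what the compound given to the animal leaves in the cultures, and it uses the same vehicle libraries as the comparison above. Of the 29 tested genes 24 fell and 0 rose, whereas 21.8% of all tested genes fell and 17.9% rose (limma, Benjamini-Hochberg adjusted p under 0.05). The median difference was -3.67 for these genes and -0.05 for all genes. The 5 largest falls were of Gpr84 (-7.24 ± 0.61, adjusted p = 0.000938), Clec4e (-7.23 ± 0.87, adjusted p = 0.00142), Cd80 (-5.95 ± 1.17, adjusted p = 0.00601), Clec4d (-5.76 ± 1.04, adjusted p = 0.00452) and Mpeg1 (-4.98 ± 1.20, adjusted p = 0.0122). Ctss, Lyz2, Mrc1, Cx3cr1 and Mertk were not called. In the same comparison 4 of 10 fibroblast markers and all 3 tested neutrophil markers fell, and 4 of 15 melanocyte markers rose and 1 fell. Their part in the falls of the macrophage genes was not tested.

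Mpeg1, which encodes a pore-forming protein that kills engulfed bacteria, was at 8.89, 4.30 and 6.85 in the in vivo libraries, against 11.22, 11.41 and 12.35 in the primed vehicle libraries. Gpr84 was at 1.03, 0.77 and 1.77 in the in vivo libraries, and Clec4e at 4.29, 2.34 and 3.27. For these last genes in vivo 1 lay close to in vivo 2 and 3, whereas for Mpeg1 it lay between in vivo 3 and the vehicle libraries. Cd80 was at 7.37, 2.98 and 3.76 in the in vivo libraries and Clec4d at 5.55, 2.67 and 5.35. The count of 24 became 13 without in vivo 2, 14 without vehicle 3 and 27 without in vivo 1. Over all 16459 tested genes 3585 fell with every library kept. In the same order of left-out libraries 1466, 1949 and 5512 fell. Without in vivo 1 only melanocyte-rich libraries were left in the in vivo group, 33.5% of all tested genes fell and 27.0% rose, and all 10 fibroblast markers fell while 13 of 15 melanocyte markers rose.

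With the 5 melanocyte-rich libraries left out, in vivo 1 alone was set against the 3 vehicle libraries in a fit of 7 libraries, in which the lone library is assumed to vary as the other groups do. Here 12 of the 29 genes fell and 0 rose, against 11.8% and 8.68% of all tested genes. Gpr84 fell by 7.41 ± 0.91 (SE; adjusted p = 0.00714, limma), Clec4e by 6.24 ± 1.28 (adjusted p = 0.0193) and Clec4d by 4.73 ± 0.65 (adjusted p = 0.00836). Slc11a1, Cybb, Cd80, Ncf4, Csf2rb, Itgam, Ncf1, Mpeg1 and Trem2 fell by 3.62 to 1.91 on the log2 scale. Among the lineage-defining genes the differences were -2.89 for Itgam, -2.85 for Adgre1, -2.26 for Fcer1g, -2.23 for Csf1r and -1.59 for Ptprc. They were -1.31 for Tyrobp, -1.15 for Spi1, -0.76 for Cd68 and 0.13 for Lyz2.

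In vitro treated were set against in vivo treated libraries to compare the routes of the same compound, although dose, duration and target cells differ between them. No gene of the 29 and 0 of the 16459 tested genes passed, 0% in either direction (limma, lowest adjusted p = 0.122), while 24 of the 29 genes and 5341 of all tested genes had an unadjusted p under 0.05. The median difference was 2.77 for the 29 genes, 3.50 for 10 fibroblast markers and -5.14 for 15 melanocyte markers. With the melanocyte-rich libraries left out these medians were 1.20, -0.31 and 0.08, and 0 of the 29 genes passed, with an unadjusted p under 0.05 in 7 (limma). In vivo 1 decides the count: without it 25 of the 29 genes were higher in vitro, as were 27.2% of all tested genes, and 21.9% were lower. That count sets the in vitro libraries against in vivo 2 and 3 alone, both melanocyte-rich, and 9 of 10 fibroblast markers were higher and 14 of 15 melanocyte markers lower in it. Route and melanocyte content cannot be told apart there. With non-primed 3 left out as well, 26 of the 29 were called, all higher in vitro, while 5404 of the 16459 tested genes were higher and 4453 lower.

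The comparison of primed and non-primed vehicle libraries addresses what the first crystal injection leaves in cultured cells. Of the 29 tested genes 28 rose and 0 fell, against 28.9% of all tested genes that rose and 22.9% that fell (limma, Benjamini-Hochberg adjusted p under 0.05). Mertk was the exception, at 0.24 ± 0.69. The median difference was 4.68 for these genes and 0.05 for all. All 10 fibroblast markers rose, and 14 of 15 melanocyte markers fell and 1 rose in the same comparison. When non-primed 3 was left out, 6 of the 10 fibroblast markers rose, and 13 melanocyte markers fell and 1 rose. Priming, paw side and melanocyte content cannot be told apart in this comparison.

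Clec4e showed the largest rise, to 8.58, 11.64 and 11.37 in the primed libraries, against 2.04, 2.84 and 1.64 in the non-primed libraries (8.35 ± 0.87, SE; adjusted p = 0.000524, limma). Cybb, the membrane subunit that carries electrons in the oxidase, was at 10.32, 11.93 and 11.98 in the primed libraries, against 5.49, 6.61 and 2.61 in the non-primed libraries (6.51 ± 1.03; adjusted p = 0.00163, limma). Gpr84 rose by 6.52 ± 0.61 (adjusted p = 0.000464, limma). Clec4d was at 9.72, 10.33 and 10.80 in the primed libraries, against 4.46, 6.28 and 2.06 in the non-primed libraries (6.02 ± 1.04; adjusted p = 0.00214, limma). Adgre1 was at 9.88, 10.95 and 11.71 in the primed libraries, against 5.98, 6.77 and 2.62 in the non-primed libraries (5.72 ± 1.18; adjusted p = 0.00366, limma). No primed library overlapped a non-primed one in these 5 genes. The lowest of the non-primed values were mostly those of library 3, and without that library 26 of the 29 genes rose, against 26.8% of all tested genes that rose and 22.1% that fell.

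Mertk and Cx3cr1 departed from the shared pattern. Mertk was at 8.19, 8.36 and 9.50 in the in vitro libraries, 8.78, 6.96 and 7.44 in the in vivo libraries, 9.52, 7.37 and 8.30 in the primed vehicle libraries and 8.79, 8.58 and 7.09 in the non-primed libraries, so that all 4 groups overlapped. Cx3cr1, the receptor of the membrane-bound chemokine Cx3cl1, was at 6.45, 4.65 and 4.43 in the in vitro libraries, 5.22, 3.90 and 4.17 in the in vivo libraries, 4.64, 5.53 and 5.47 in the primed vehicle libraries and 1.51, 1.82 and 3.37 in the non-primed libraries. Its non-primed maximum was in library 3, where most of the other genes had their minimum.

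The other 6 genes had a mean under 3 and were not tested. Ccr2, the chemokine receptor of newly arrived monocytes, lay between -1.27 and -0.35 in all 12 libraries, and Cd163, a scavenger receptor for haemoglobin, between -0.42 and 1.30. Fcgr1, a high-affinity Fc receptor, and Aif1, an actin-binding protein, averaged 2.26 and 2.79 in the in vitro libraries and 3.51 and 3.48 in the primed vehicle libraries. Cd86, the partner of Cd80, was at 3.81, 5.32 and 3.15 in the in vitro libraries, against 4.83, 4.57 and 5.50 in the primed vehicle libraries, and these overlapped where those of Cd80 did not. Lyz1, at 0.54 to 4.74, is 95.8% identical to Lyz2 along the transcript, and reads of these copies may have been shared out between them. Csf2rb, the shared receptor chain for Csf2, is 87.6% identical to its neighbour Csf2rb2 and is uncertain in the same way.

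A wider list of 35 macrophage markers, of which 30 were tested, was described in the same way. For this and the further lists, 21.8% of all tested genes fell in vivo and 33.5% without in vivo 1. With priming 28.9% rose, and 26.8% without non-primed 3. The shares with the melanocyte-rich libraries left out were given above. The lists were described and not tested as sets. In vitro, 0 of 30 were called in the 12-library fit, with an unadjusted p under 0.05 in 8 (limma). In the 6-library fit 9 fell, where 16.9% of all tested genes did, with a median of -0.86. In vivo, 23 of 30 fell, where 21.8% of all genes did, led by Clec4n (-6.07 ± 1.13; adjusted p = 0.00502, limma), Cd14 (-5.87 ± 0.90; adjusted p = 0.00268) and Hcls1 (-5.07 ± 0.81; adjusted p = 0.00302). With the melanocyte-rich libraries left out 12 of 30 fell and the median difference was -1.90 rather than -3.41. Without in vivo 1, 27 fell and 1 rose. Clec4n, Cd14 and Hcls1 were called in both, by -4.92, -4.32 and -4.07 with the melanocyte-rich libraries left out. Primed against non-primed, 23 rose, Cd14 and Cd53 with the largest differences (7.37 ± 0.90 and 5.74 ± 1.07), and 1 fell, Arhgap30 (-5.99 ± 1.41; adjusted p = 0.00631, limma). Without non-primed 3, 21 rose and 1 fell.

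Growth factors and chemokines that act on the receptors above were listed as well, and 10 of these 12 ligands were tested. In vitro 2 fell and 0 rose, against 2.76% and 1.76% of all tested genes. Csf2, a granulocyte and macrophage growth factor, was at 2.28, 1.47 and 2.09 in the in vitro libraries, against 8.10, 10.51 and 10.93 in the primed vehicle libraries (-7.90 ± 0.82, SE; adjusted p = 0.0038, limma), and Cx3cl1 differed by -2.19 ± 0.48 (adjusted p = 0.036). Csf1, the ligand on which most macrophages depend, was at 17.57, 17.42 and 16.84 in the in vitro libraries, against 16.71, 17.49 and 16.97 in the vehicle libraries. Csf2, like Gpr84, reached the minimum mean only through the vehicle libraries. Il34, the other ligand of Csf1r, was at 8.64, 8.64 and 8.82 in the in vitro libraries, against 10.68, 10.18 and 10.26 in the vehicle libraries. It was not called in the 12-library fit (-1.67 ± 1.03, SE; adjusted p = 0.36, limma) and was called in the 6-library fit (SE 0.16; adjusted p = 0.00225). Of the ligands of Csf1r, Csf1 thus overlapped between these groups and Il34 did not. In vivo 6 of the 10 fell, among them Csf2 (-8.77 ± 0.82; adjusted p = 0.000938, limma), Ccl2 (-5.10 ± 1.49) and Ccl7 (-4.45 ± 1.50). Ccl7 was at 15.04 in in vivo 1 and at 9.54 and 9.74 in in vivo 2 and 3, against 15.70, 16.00 and 15.96 in the vehicle libraries. With the melanocyte-rich libraries left out 5 of the 10 fell, the median was -0.55 rather than -3.14, and Csf2, Ccl2 and Ccl7 differed by -8.70 ± 1.02, -2.25 ± 0.36 and -0.85 ± 0.22. Without in vivo 1, 9 fell. In all, 9 of the 10 rose in primed against non-primed libraries, with Ccl2 (7.44 ± 1.49), Csf2 (7.40 ± 0.82) and Ccl7 (7.26 ± 1.50) in front. That count was 8 without non-primed 3.

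Sensors of microbes, many of them used by macrophages and fibroblasts alike, were lower in vitro in 3 of 15 tested genes, against 2.76% of all. They were Nlrp3, the inflammasome sensor that MSU crystals activate (-3.67 ± 0.43; adjusted p = 0.00668, limma), Tlr2 (-2.34 ± 0.46; adjusted p = 0.0272) and Ly96, the partner of Tlr4 (-1.61 ± 0.32; adjusted p = 0.0287). In the 6-library fit 12 of 15 passed, where 16.9% of all tested genes fell and 13.4% rose. The in vitro mean lay below the vehicle mean for every tested sensor but Nod1. In vivo 14 of the 15 fell, against 21.8% of all tested genes, Cd14, Nlrp3 (-5.76 ± 0.43) and Tlr7 (-5.28 ± 0.82) the most. The count was 11 with the melanocyte-rich libraries left out, and without in vivo 1, 13 fell and 1 rose. In primed against non-primed libraries 10 rose and 1 fell, with rises of 6.28 ± 0.69 for Nod2 and 5.05 ± 0.43 for Nlrp3. Of 8 tested osteoclast markers, genes of the bone-resorbing relative of the macrophage, Itgb3 alone fell in vitro (-3.42 ± 0.61; adjusted p = 0.0191, limma). In the 6-library fit 4 fell, against 16.9% of all tested genes. In vivo 7 of the 8 fell, against 21.8% of all tested genes, with Mmp9 (-6.73 ± 1.13), Acp5 (-4.48 ± 1.08) and Ctsk (-4.05 ± 1.15) in front. With the melanocyte-rich libraries left out 5 fell, these 3 by -5.71, -1.86 and -1.78, and without in vivo 1, all 8 fell. The same 3 genes led the 7 that rose in primed against non-primed libraries, at 5.70 ± 1.13, 5.13 ± 1.08 and 5.81 ± 1.15.

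Most markers of other blood cells did not reach the minimum mean of 3. Of 12 T and NK cell markers 8 were under 1 in all 12 libraries, as were 5 of 8 mast cell markers, 4 of 8 B cell markers and 3 of 12 neutrophil markers. Camp, S100a8 and Mmp8, which encode granule and calcium-binding proteins of neutrophils, were the tested neutrophil markers. Camp was at 6.42, 7.64 and 9.12 in the in vitro libraries and 5.41, 5.24 and 5.03 in the in vivo libraries, against 10.58, 10.50 and 10.92 in the primed vehicle libraries. All 3 rose in primed against non-primed libraries (6.66 ± 0.86, 5.91 ± 0.89 and 5.64 ± 1.17), and all 3 fell in vivo (-5.44 ± 0.86, -4.87 ± 0.89 and -5.87 ± 1.17). They also fell in vivo with the melanocyte-rich libraries left out, with a median of -5.25, and without in vivo 1. In vitro they were at -2.94, -3.20 and -2.60 and not called in the 12-library fit, while Camp and S100a8 fell in the 6-library fit (adjusted p = 0.0137 and 0.0152, limma). The 3 tested neutrophil markers thus moved with the macrophage genes in vivo and with priming. The rest of the 12 had a mean under 3. In the primed vehicle libraries Elane was at 0.09, 0.17 and 1.80 and Mpo at 1.28, 0.69 and 1.91. Csf3r was higher there, at 2.81, 4.04 and 4.45. Whether neutrophils were present was not tested. S100a9, the usual partner of S100a8, lay between -0.59 and 0.99 in all 12 libraries.

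Brd2 rose in vitro by 2.01 ± 0.38 (adjusted p = 0.0249, limma) and in vivo by 1.70 ± 0.38 (adjusted p = 0.00929). Hexim1 rose in vivo by 1.92 ± 0.45 (adjusted p = 0.0109, limma) and missed the threshold in vitro at 1.78 ± 0.45 (adjusted p = 0.0509), but was called in the 6-library fit (adjusted p = 0.00171). Myc, a growth regulator that BET inhibition lowers in many cells, was at 12.04, 12.08 and 12.33 in the in vitro libraries, overlapping the vehicle libraries. It fell in vivo by 1.26 ± 0.33 (adjusted p = 0.0165, limma). It was at 11.51 in in vivo 1 and at 10.49 in both in vivo 2 and 3, against 11.77, 12.23 and 12.27 in the vehicle libraries and 10.27 in non-primed 3. The call was lost with the melanocyte-rich libraries left out (-0.58 ± 0.22; adjusted p = 0.106, limma).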

How the data were processed

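RNA sequencing libraries, 12 in number, were grouped by their titles. The submitters' processing notes list DESeq2 1.24.0, STAR 2.6.1c, cutadapt 1.18, Subread 1.6.1 with featureCounts, and build GRCm38; how these were set, which annotation was used and whether counting used strand is not given in the sources used here. Regularized log2 values were what the authors deposited, from -2.24 to 20.55. They keep no counts, so the depth of each library and its effect on precision are unknown. The values understate differences of weakly expressed genes.

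All 55413 identifiers matched a symbol of the GENCODE annotation (release M21), which gave the coordinates. Genes of mean rlog 3 or more were fitted with limma 3.58.1 in R 4.3.3 (1 mean per group, all 12 libraries, variance trend), with two-sided p-values adjusted over all 16459 genes by the Benjamini-Hochberg method and called under 0.05. Standard errors come from these fits. The fit of only the 6 libraries compared is an alternative. An exact permutation test of 3 against 3 libraries was not used. Values relative to lineage genes subtract the mean rlog of 9 genes within a library. On simulated data with 200 changed genes among 16459, at least 49 of 50 genes changed by 8 log2 units were recovered in each comparison, with at most 12 false calls. That recovery does not hold for smaller changes, such as most of the in vitro differences. Genes were simulated independently, without the pattern that they shared between libraries.

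The genes and lists were chosen with earlier results of these data known. By rule, values per library were given for the 9 lineage-defining genes, for every gene called in vitro in either fit and for the 5 largest called differences of each other comparison, and up to 3 called genes of each further list were named. Genes outside this rule, such as Csf1, Il34, C1qa and S100a9, were chosen after their values were seen. Alternatives were another filter, no variance trend, other scalings, a replicate block and each library left out. Fits without melanocyte-rich libraries or without those that stand apart, the fits of the further lists without libraries, and leaving out each library in the 6-library fit, were added after the data were seen.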

Additional observations from a re-analysis of the deposited data

How the results depend on the processing

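The count of genes called in primed against non-primed libraries lay between 24 and 30 under every alternative run (28 as reported), and no called difference of the 29 genes turned its sign. Among 1666 values of single genes under alternatives 36 changed sign, 0 of them called. In vivo against vehicle, 24 genes fell as reported, 12 with the melanocyte-rich libraries left out, and 13 to 27 when 1 library was left out; over all genes 6531 were called as reported, 3950 with only the libraries compared, 3365 without the melanocyte-rich libraries, 11265 without non-primed 3 and in vivo 1, and 2435 to 9962 with 1 library left out. In vitro against vehicle, 2 genes fell as reported, 7 with only the libraries compared or without the melanocyte-rich libraries, 1 at a minimum mean of 5, where Gpr84 is not tested, and 1 to 2 with 1 library left out. In the 6-library fit leaving out 1 library gave 4 to 8, the lowest without vehicle 3. Over all genes 743 were called as reported, 1180 with no filter, 470 at a minimum mean of 5, 1155 with quantile normalization, 4983 with only the libraries compared, 4989 without the melanocyte-rich libraries and 12 to 367 with 1 library left out. In vitro against in vivo, where 0 was reported, 0 to 25 of the 29 genes and 0 to 8085 of all genes were called with 1 library left out, 26 and 9857 without non-primed 3 and in vivo 1, and 1 of all genes with no filter. Same-numbered libraries did not pair, since 4 of 18 correlations of their deviations were over 0.1 (-0.43 to 0.37). Pairing under other numbers was not modelled. Between primed vehicle and in vitro libraries it gave 0.42 for vehicle 1 with in vitro 3 and 0.36 for vehicle 2 with in vitro 1. It gave -0.44 for vehicle 2 with in vitro 3. With the replicate number as a block the counts were 28, 24, 1 and 0 of the 29 genes for primed, in vivo, in vitro, and in vitro against in vivo, and 173 of all genes in vitro. Quantile normalization moved the median of all genes to -0.24 in primed against non-primed, with 3858 higher and 5680 lower (4754 and 3774 as reported), and to 0.19 in vivo, with 4595 higher and 2967 lower (2946 and 3585 as reported); median-centring gave 0.14 in vivo, with 4029 and 2964. In vitro, quantile normalization gave 573 higher and 582 lower (289 and 454 as reported). Where not stated, the cause of a change was not tested.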

Other observations

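The complement genes C1qa, C1qb and C1qc, which resting tissue macrophages make in quantity, are given here because several treated libraries stood above the vehicle libraries. C1qa was at 8.47, 9.36 and 6.23 in the in vitro libraries and at 7.82, 2.15 and 4.22 in the in vivo libraries, against 6.59, 6.98 and 7.50 in the primed vehicle libraries. In vivo 1 was thus above all 3 vehicle libraries, as were in vitro 1 and 2, although the lineage mean of in vivo 1 was below theirs. C1qb was at 9.23, 10.24 and 7.31 in the in vitro libraries, 8.86 in in vivo 1, and 7.11, 7.86 and 8.41 in the primed vehicle libraries. None of the 3 was called in vitro, at 1.00 ± 1.39 for C1qa, 1.13 ± 1.47 for C1qb and 0.95 ± 1.33 for C1qc (SE, limma, adjusted p = 0.695 to 0.722). They were chosen after their values were seen.

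Pax5, a transcription factor of B cells, was the 1 B cell marker called, and it fell in vitro (-3.23 ± 0.51; adjusted p = 0.0132, limma) and in vivo (-4.22 ± 0.51; adjusted p = 0.00146), while 4 of the 8 B cell markers stayed under 1 in all 12 libraries. The single tested T and NK cell marker, Lck, fell in vivo (-2.55 ± 0.83; adjusted p = 0.0341, limma), a call that was lost without in vivo 1 (adjusted p = 0.071, limma). Of 4 tested endothelial markers Kdr fell in vivo (-2.00 ± 0.69; adjusted p = 0.0413, limma). It was at 6.11 in in vivo 1 and 3.08 and 3.27 in in vivo 2 and 3, against 6.22, 6.21 and 6.03 in the vehicle libraries, and with the melanocyte-rich libraries left out it differed by -0.05 ± 0.31 and was not called (adjusted p = 0.927, limma). Tek and Kdr were higher in primed than in non-primed libraries (3.81 ± 0.98 and 3.54 ± 0.69). So was Gata2, the 1 gene tested of the mast cell list (1.46 ± 0.39; adjusted p = 0.0108, limma). Of the 8 mast cell markers 5 were under 1 in all 12 libraries, so Gata2 is not read as a sign of mast cells.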
